A study of Sus scrofa with 8 samples.

Results

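The expression of 10 genes of retinol and retinoic acid metabolism was examined in porcine pancreatic ductal organoids (PPDO): 4 for uptake, storage and binding (STRA6, LRAT, RBP2 and CRABP2), 5 for synthesis (RDH10, DHRS9, ALDH1A1, ALDH1A2 and the reverse reductase DHRS3) and 1 for breakdown (CYP26B1). They were chosen by gene symbol, from 30282 genes in the table, and all 10 had reads in at least 1 library. PPDO are hollow spheres of duct epithelium grown in extracellular matrix from ductal structures picked out of digested pig pancreas. Messenger RNA was sequenced from 4 organoid lines after 7 days of culture, in which each line was kept in both complete and differentiation medium, with 1 library for each line in each medium and 8 libraries in all. The Em line came from an embryo, EPN1 and EPN2 came from early postnatal pigs around weaning, and LPN came from a late postnatal pig between weaning and reproductive maturity. Wild-type and INS-eGFP German landrace pigs were used in the study, and which line came from which is not given in the sources used here.

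Both media held the basal medium with N2, the supplement that the study names B27-vitamin A, the TGF-beta receptor inhibitor A83-01, the ROCK inhibitor Y-27632, nicotinamide and N-acetyl-L-cysteine. Complete medium further held prostaglandin E2, WNT3a, R-spondin1 and noggin (or a conditioned supplement in place of these 3), FGF10, EGF and gastrin I, and differentiation medium was made without them. The 2 groups follow the sample titles and the column names, whereas the treatment field of the labels names endocrine induction media for all 8 samples. Retinoic acid was not named in either. Em and LPN are 1 line each, so a line and its age cannot be told apart, and a change of medium that differs between lines has no replicate.

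Retinoic acid is made from vitamin A (retinol) in steps. Retinol is taken up or bound by carrier proteins and stored as retinyl esters, then oxidised to retinaldehyde by retinol dehydrogenases and to retinoic acid by retinaldehyde dehydrogenases. Retinoic acid acts through nuclear receptors (RAR with RXR), and CYP26 enzymes break it down. In the developing pancreas it takes part in patterning and in the formation of endocrine cells.

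Levels are given as counts scaled to library size (CPM) with TMM, the normalization of edgeR, or as the counts themselves where these are low. Library totals were 40553593 to 47910657 counts, and 3 counts, the limit that a count of 0 allows, corresponded to 0.0626 to 0.0740 CPM, for counting error only. CPM is not corrected for gene length, so levels are compared between libraries and not between genes. Ductal and epithelial markers were present, all 10 above 3 counts in 7 of 8 libraries and 9 in EPN2 in complete medium, where ONECUT1 had 3, with a summed level of 6646 to 9187 CPM in complete and 3832 to 14350 CPM in differentiation medium. Markers of other cell types varied within their lists. Of the endothelial genes CDH5 reached at most 1 count, while PECAM1 was at 7.96 to 17.6 CPM and KDR at 3.36 to 33.9 CPM. Of the immune genes CD3E reached at most 1 count, while CD14 was at 4.002 to 70.1 CPM and CD68 at 3.24 to 49.8 CPM. Of the acinar genes PTF1A and PNLIP were at 0, while CPA1 had 3 to 29 counts. In these bulk samples fewer cells of a type and less RNA per cell cannot be told apart.

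RBP2 and RDH10 were higher in differentiation medium in 4 of 4 lines, DHRS9 and ALDH1A1 were lower in 4 of 4, and the remaining genes went different ways in different lines. For DHRS9 the 4 include Em, where 2 and 1 counts are too few to read a direction. Of all genes tested 23.9% were higher and 24.2% lower in 4 of 4 lines, so that 2 of 8 in each direction is near the background. In the comparison of the 4 libraries of each medium by edgeR, without regard to line, 0 of the 8 genes that passed the filter on low counts (all but STRA6 and LRAT) had an adjusted p under 0.05, against 6.97% of all 14475 genes tested (2.87% higher and 4.1% lower). At an unadjusted p under 0.05 there were 5 of 8 (RBP2, RDH10, ALDH1A1, DHRS3 and CYP26B1), against 27.3% of all genes. Because each line was grown in both media, the line could be taken as a block, and then 4 of 8 passed: RBP2 and RDH10 rose, and DHRS9 and ALDH1A1 fell. With that block 19.9% of all genes passed, 9.48% higher and 10.4% lower. In fits with the block that were chosen after seeing the data and left out both libraries of 1 line, and so had fewer samples, RBP2, RDH10 and DHRS3 passed without Em, ALDH1A1 and CYP26B1 without EPN2, and 0 of the genes without LPN or without EPN1. The share of all genes that passed in those fits is not given here, so nothing about a line is read from them. DESeq2 called 5 of 8 without the block, where DHRS9 had no p (20.1% of the 14363 genes with an adjusted p). With the block it called 6 of 8 (37.3% of all genes). The genes were chosen with earlier results of these data known, so these counts are no independent evidence of a direction. The median log2 fold change of the 8 genes was 1.10 without the block and 0.84 with it, against 0.01 and -0.01 over all genes tested.

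**Figure D1:**
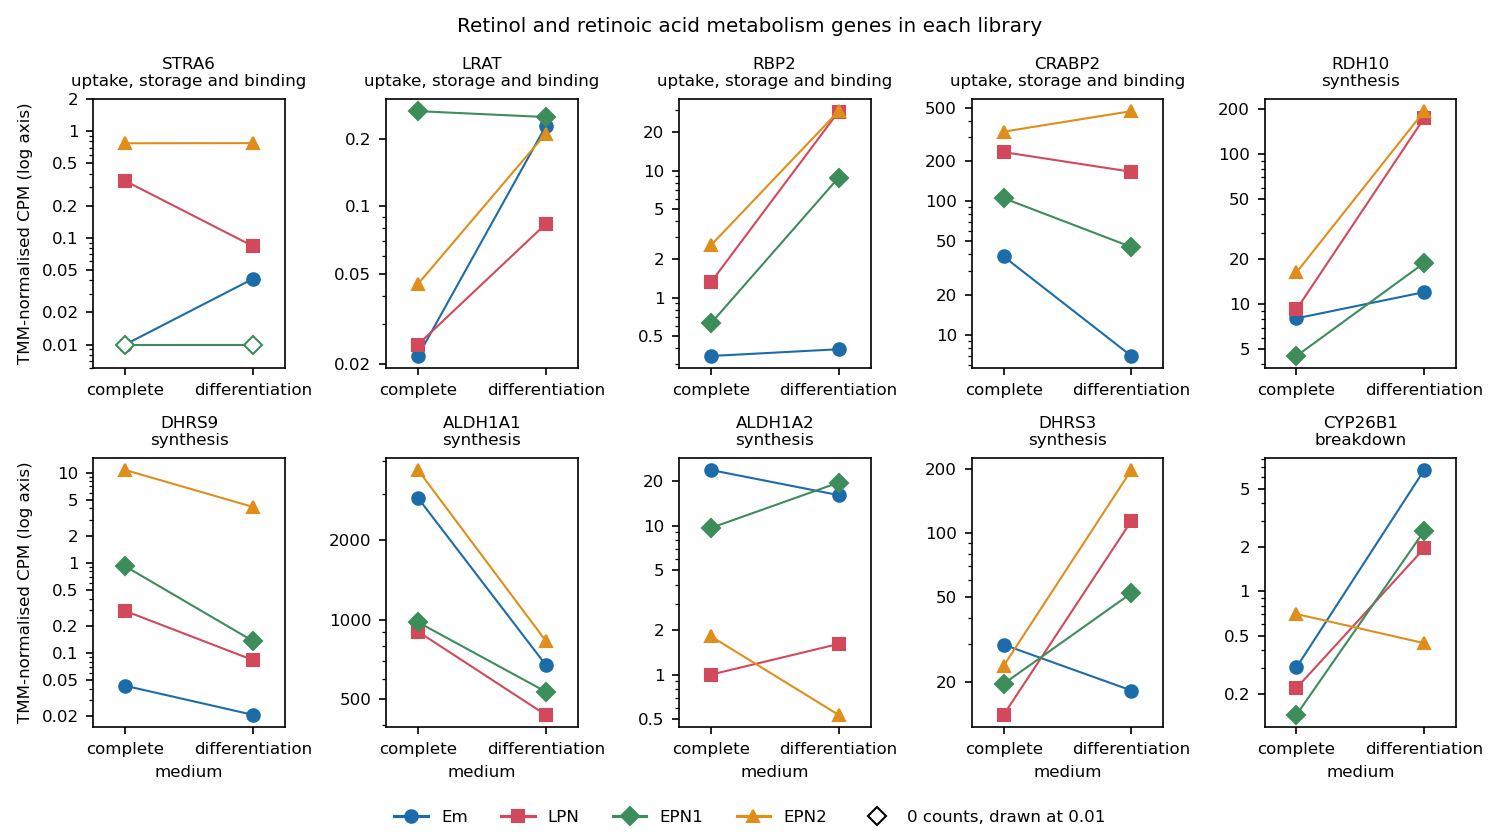
Each panel plots 1 gene, with TMM-normalised CPM on a log axis against the medium; each point is 1 library, lines join the 2 libraries of an organoid line, and open points are libraries with 0 counts (for STRA6 in complete medium those of Em and EPN1 coincide). RBP2 and RDH10 slope upwards in all 4 lines, with Em nearly flat, and DHRS9 and ALDH1A1 slope downwards in all 4. The slope of DHRS9 in Em rests on 2 and 1 counts. The lines of CRABP2, ALDH1A2, DHRS3 and CYP26B1 cross or diverge.

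Uptake and storage genes were close to the limit of detection. STRA6, the membrane receptor that takes retinol from its blood carrier (chromosome 7, 59317930 to 59347274 of Sscrofa11.1 in RefSeq), had 0 counts in Em, 14 in LPN, 0 in EPN1 and 34 in EPN2 in complete medium. In differentiation medium it had 2, 4, 0 and 33 counts in the same order. The gene was thus counted mainly in EPN2, at 0.769 and 0.771 CPM in the 2 media, and the groups overlapped. LRAT, which esterifies retinol for storage (chromosome 8, 74412226 to 74428713), had 1, 1, 11 and 2 counts in Em, LPN, EPN1 and EPN2 in complete medium and 11, 4, 11 and 9 in differentiation medium. No more than 11 counts were seen in any library, the groups overlapped, and a change of LRAT or STRA6 was not detectable at this depth. Neither passed the filter on low counts, and without the filter the log2 fold change was -0.32 ± 1.58 (SE) for STRA6, with an adjusted p of 0.935 in edgeR, and 1.10 ± 0.87 for LRAT, with an adjusted p of 0.480.

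RBP2, the cellular retinol-binding protein best known from the absorptive cells of the small intestine, lies on chromosome 13 (80321024 to 80346032). In complete medium its level was 0.347 CPM in Em, 1.32 in LPN, 0.625 in EPN1 and 2.58 in EPN2. In differentiation medium it was 0.392 CPM in Em, 29.2 in LPN, 8.80 in EPN1 and 29.4 in EPN2. The 3 postnatal lines in differentiation medium stood above every library in complete medium, and Em was within the range of complete medium, so that the groups overlapped. Within lines the level was 22.2-fold higher in LPN, 14.1-fold in EPN1 and 11.4-fold in EPN2, and 1.13-fold in Em, where the counts were 16 and 19. The mean was 1.22 ± 0.995 CPM (SD, n = 4) in complete and 16.9 ± 14.7 CPM (SD, n = 4) in differentiation medium. The log2 fold change was 3.80 ± 1.19 (SE) with an edgeR adjusted p of 0.0921, and 3.25 ± 0.75 with an adjusted p of 0.0382 with the line as a block. When 1 library was left out without the block, the edgeR adjusted p was 0.0408 to 0.209, under 0.05 in 1 of 8 fits. That fit left out Em in differentiation medium, the line with the smallest change, so nothing is read from its passing. The adjusted p ran from 1.24e-05 to 0.333 over the 22 alternatives.

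Levels of absorptive intestinal markers stand beside this. Of the 10 listed genes 9 were in the table and 8 had more than 3 counts in some library, and their summed level was 72.3 to 212.8 CPM in complete and 49.2 to 441.5 CPM in differentiation medium. The sum was highest in differentiation medium in Em, at 441.5 CPM, and in EPN1, at 360.2 CPM, and was 100.1 CPM in LPN and 49.2 CPM in EPN2, where RBP2 was highest. Within lines the sum was higher in differentiation medium in Em, LPN and EPN1 and lower in EPN2, from 153.2 CPM, and VIL1 alone made 48.06 to 355.9 CPM of it there. FABP1, a fatty acid carrier of the absorptive cells, had 1, 1, 0 and 1 counts in Em, LPN, EPN1 and EPN2 in complete medium. In differentiation medium it had 216, 4, 236 and 28. Its groups thus did not overlap, though LPN came near, and the same held for 18.8% of all genes tested. FABP1 itself was below the filter on low counts. Other genes of the list went both ways: APOA1 was higher in differentiation medium in 3 of 4 lines, CDX2 was lower in 3 of 4 and MTTP lower in 4 of 4. Of the 4 genes of this list that were tested, 0 passed in edgeR with or without the block. APOB had 0 or 1 count in every library but those of Em and EPN1 in differentiation medium, with 53 and 96, and FABP2 reached at most 1 count in any library. The part of such cells in the RBP2 level was not tested.

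CRABP2, which binds retinoic acid in the cytoplasm and carries it to the nuclear receptors (chromosome 4, 93388198 to 93393861), covered a wide range of levels across lines. In complete medium it was at 38.6 CPM in Em, 232.4 in LPN, 105.3 in EPN1 and 330.3 in EPN2. The corresponding levels in differentiation medium were 6.97, 165.7, 45.5 and 470.2 CPM. EPN2 was highest and Em lowest in both media, with LPN above EPN1 in both. The level in Em was 5.54-fold lower in differentiation medium, in EPN1 2.32-fold lower and in LPN 1.40-fold lower, while in EPN2 it was 1.42-fold higher. Means were 176.7 ± 130.2 CPM (SD, n = 4) and 172.1 ± 209.9 CPM (SD, n = 4), with a log2 fold change of -0.04 ± 1.10 (SE) and an edgeR adjusted p of 0.985. With the line as a block the log2 fold change was -0.90 ± 0.49 and the adjusted p was 0.229. Its sign without the block depended on the libraries used, from -1.28 to 0.46 when 1 library was left out, the lowest value without the EPN2 library in differentiation medium and the highest without the EPN2 library in complete medium.

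The first oxidation, of retinol to retinaldehyde, is carried out by RDH10, the main retinol dehydrogenase of the embryo, and is one of the reactions given for DHRS9. RDH10 (chromosome 4, 62569877 to 62600981) was at 8.06 CPM in Em, 9.24 in LPN, 4.52 in EPN1 and 16.3 in EPN2 in complete medium. In differentiation medium the levels were 12.1 CPM in Em, 174.3 in LPN, 18.9 in EPN1 and 193.7 in EPN2. LPN and EPN2 stood far above all other libraries, EPN1 slightly above the highest library of complete medium, and Em within its range, so that the groups overlapped. The level was 18.9-fold higher in LPN, 11.9-fold in EPN2, 4.17-fold in EPN1 and 1.50-fold in Em. Means were 9.53 ± 4.94 CPM (SD, n = 4) and 99.7 ± 97.7 CPM (SD, n = 4). The log2 fold change was 3.39 ± 0.96 (SE) with an edgeR adjusted p of 0.0733, and 2.66 ± 0.68 with an adjusted p of 0.0484 with the line as a block. Over the 22 alternatives the adjusted p was 3.62e-05 to 0.303. Rows for the extended 3′ end of the gene held 7.57% of the RDH10 counts, and no call changed without such rows.

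DHRS9, a dehydrogenase of the same family (chromosome 15, 75507538 to 75533942), was counted mostly in EPN2. It had 472 counts in EPN2 in complete medium, against 2 in Em, 12 in LPN and 38 in EPN1. In differentiation medium there were 178 counts in EPN2 and 1, 4 and 6 in Em, LPN and EPN1. EPN2 was at 10.7 CPM and 4.16 CPM, 11.7-fold above the next line in complete and 30.6-fold above it in differentiation medium. DHRS9 was lower in differentiation medium in the postnatal lines, 6.73-fold in EPN1, 3.50-fold in LPN and 2.57-fold in EPN2. Em, at 2 counts or fewer, allows no direction and no fold. Groups overlapped, with means of 2.98 ± 5.14 CPM (SD, n = 4) and 1.10 ± 2.04 CPM (SD, n = 4). The edgeR log2 fold change was -1.44 ± 1.85 (SE) with an adjusted p of 0.649, and with the line as a block it was -1.81 ± 0.38 with an adjusted p of 0.0315. Without the block its sign turned, to 1.40, when the EPN2 library in complete medium was left out, and its adjusted p was 0.00244 to 0.802 over the alternatives that gave one.

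ALDH1A1 and ALDH1A2 are retinaldehyde dehydrogenases, which make retinoic acid itself. ALDH1A1 (chromosome 1, 226163347 to 226217342) was at 2896 CPM in Em, 903.9 in LPN, 980.7 in EPN1 and 3696 in EPN2 in complete medium. In differentiation medium it was at 675.9 CPM in Em, 437.4 in LPN, 535.1 in EPN1 and 833.7 in EPN2. Every library in differentiation medium was below every library in complete medium, which was true of 1 of the 8 genes in either direction and of 18.8% of all genes tested. The order of the lines, EPN2, Em, EPN1 and LPN, was alike in both media. The level was 4.43-fold lower in EPN2, 4.29-fold in Em, 2.07-fold in LPN and 1.83-fold in EPN1, and the spread between lines was narrower in differentiation medium, where the highest was 1.91-fold above the lowest, than in complete medium, where it was 4.09-fold. Means were 2119 ± 1398 CPM (SD, n = 4) and 620.6 ± 172.6 CPM (SD, n = 4). The log2 fold change was -1.77 ± 0.50 (SE) with an edgeR adjusted p of 0.0722, and -1.54 ± 0.28 with an adjusted p of 0.0235 with the line as a block. It kept its sign in all 22 alternatives, with adjusted p values of 3.05e-06 to 0.235.

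ALDH1A2, the enzyme that makes most retinoic acid in the early embryo (chromosome 1, 113932722 to 114037059), was high in a different pair of lines. In complete medium it was at 23.6 CPM in Em, 9.64 in EPN1, 1.81 in EPN2 and 0.999 in LPN. In differentiation medium it was at 16.03 CPM in Em, 19.5 in EPN1, 0.537 in EPN2 and 1.61 in LPN. Em and EPN1 were above LPN and EPN2 in both media, and the lower of the first pair exceeded the higher of the second 5.33-fold in complete and 9.97-fold in differentiation medium. The media overlapped: the level was 2.02-fold higher in EPN1 and 1.61-fold higher in LPN, and 1.48-fold lower in Em and 3.37-fold lower in EPN2. Means were 9.02 ± 10.5 CPM (SD, n = 4) and 9.41 ± 9.74 CPM (SD, n = 4), and the log2 fold change was 0.06 ± 1.26 (SE) with an edgeR adjusted p of 0.979. With the line as a block it was -0.10 ± 0.49, with an adjusted p of 0.896.

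DHRS3, which reduces retinaldehyde back to retinol and so works against RDH10 while binding to it (chromosome 6, 72556234 to 72599233), was at 29.9 CPM in Em, 14.0 in LPN, 19.6 in EPN1 and 23.8 in EPN2 in complete medium. In differentiation medium it was at 18.2 CPM in Em, 113.9 in LPN, 52.2 in EPN1 and 197.5 in EPN2. All 3 postnatal lines were above every library of complete medium, and Em lay below its own library there, so that the groups overlapped. The level was 8.31-fold higher in EPN2, 8.14-fold in LPN and 2.67-fold in EPN1, and 1.64-fold lower in Em. Means were 21.8 ± 6.71 CPM (SD, n = 4) and 95.4 ± 78.7 CPM (SD, n = 4). The log2 fold change was 2.13 ± 0.65 (SE) with an edgeR adjusted p of 0.0877, and 1.78 ± 0.73 with an adjusted p of 0.135 with the line as a block. With 1 library left out and no block, the edgeR adjusted p was 0.0408 to 0.198, under 0.05 in 1 of 8 fits. That fit lacked Em in differentiation medium, the line that fell, so nothing is read from its passing. The range of the adjusted p over the 22 alternatives was 0.00634 to 0.369.

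Breakdown was measured by CYP26B1, a cytochrome P450 that oxidises retinoic acid to inactive forms and is itself raised by retinoic acid in many cells. In complete medium it had 14 counts in Em, 9 in LPN, 6 in EPN1 and 31 in EPN2, or 0.303, 0.219, 0.144 and 0.701 CPM. In differentiation medium it had 325 counts in Em, 94 in LPN, 114 in EPN1 and 19 in EPN2, or 6.71, 1.96, 2.58 and 0.444 CPM. Em, LPN and EPN1 were above every library in complete medium and EPN2 was within its range, so the line that was highest in complete medium was lowest in differentiation medium and the groups overlapped. The level was 22.1-fold higher in Em, 17.9-fold in EPN1 and 8.95-fold in LPN, and 1.58-fold lower in EPN2. Means were 0.342 ± 0.248 CPM (SD, n = 4) and 2.92 ± 2.68 CPM (SD, n = 4). The log2 fold change was 3.08 ± 0.86 (SE) with an edgeR adjusted p of 0.0697, and 2.92 ± 1.02 with an adjusted p of 0.0937 with the line as a block. Leaving out 1 library at a time without the block gave edgeR adjusted p values of 0.0396 to 0.170, under 0.05 in 1 of 8 fits. That fit lacked EPN2 in differentiation medium, the line that did not rise, so nothing is read from its passing. Over the 22 alternatives the adjusted p was 0.00229 to 0.300.

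**Figure D2:**
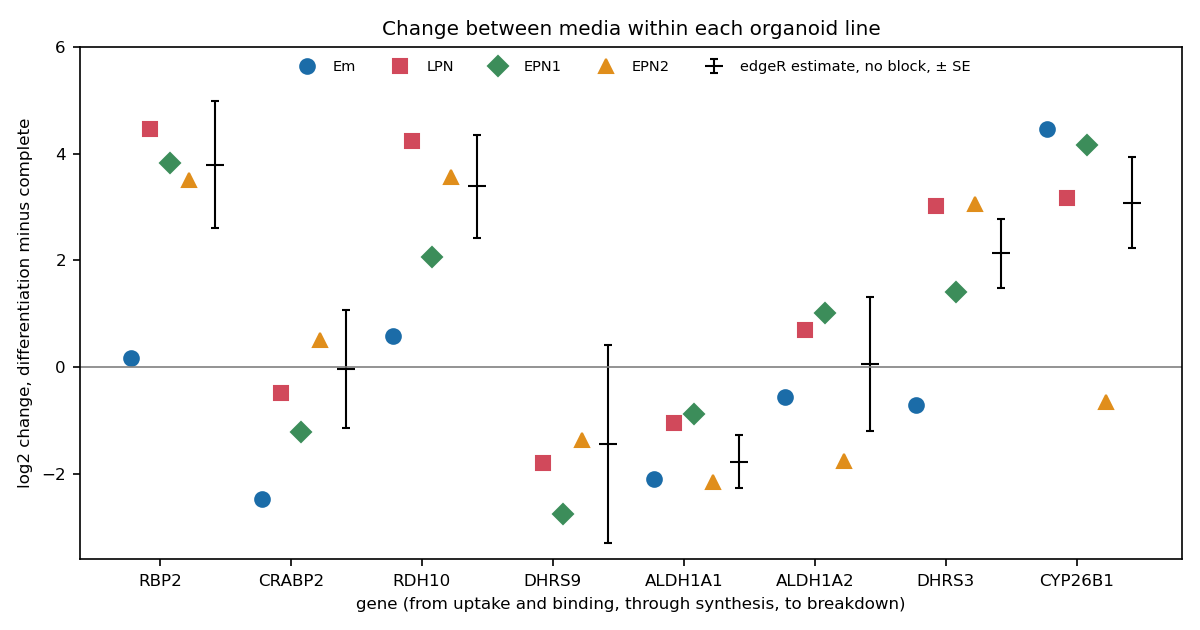
Log2 change of TMM-normalised CPM from complete to differentiation medium in each organoid line (coloured points) for the 8 genes tested, with the edgeR estimate without the block and its SE in black; DHRS9 in Em is left out because it had at most 2 counts. Em lies lowest of the lines for RBP2, CRABP2, RDH10 and DHRS3 and highest for CYP26B1, where EPN2 is the 1 line below 0.

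Set side by side, the change in Em was the lowest of the 4 lines for RBP2, CRABP2, RDH10 and DHRS3 and the highest for CYP26B1. LPN and EPN2 had the highest levels of RBP2, CRABP2, RDH10 and DHRS3 in differentiation medium and the lowest of ALDH1A2 and CYP26B1. EPN1 lay between Em and the pair of LPN and EPN2 for RBP2, CRABP2, RDH10, DHRS3 and CYP26B1 in that medium. With 1 library per line and medium, whether the effect of the medium differs between lines was not tested, and neighbours in these orders have no spread of their own.

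In differentiation medium RBP2, CRABP2, RDH10 and DHRS3 had the order EPN2, LPN, EPN1 and Em, which some marker sums followed or reversed. Not every gene in those sums did. In differentiation medium the summed level of the stratified squamous markers (6 of 8 in the table, among them KRT4, IVL and DSG3) was 4057 CPM in EPN2, 1542 in LPN, 1116 in EPN1 and 195.2 in Em. Of the squamous genes DSG3, KRTDAP and TGM1 had this order themselves. KRT4 was highest in EPN1, at 812.6 CPM, against 549.2 in LPN, 513.4 in EPN2 and 103.8 in Em. IVL and KRT10 were lower in EPN1, at 2.512 and 38.93 CPM, than in Em, at 2.826 and 51.93 CPM. The sum of the ductal and epithelial markers ran in the opposite order, at 3832 CPM in EPN2, 5512 in LPN, 9862 in EPN1 and 14350 in Em. Of its genes SOX9 and CDH1 did not have that order. In complete medium the squamous sum was 2657 CPM in EPN2, 424.9 in LPN, 211.4 in EPN1 and 218.5 in Em, and the ductal sum was 6646 to 9187 CPM. The stromal markers were low throughout, with a summed level of 0.972 to 6.33 CPM in complete and 0.958 to 9.88 CPM in differentiation medium, highest in Em and EPN1 in both. The immune markers summed to 28.9 to 58.9 CPM in complete and 8.05 to 94.6 CPM in differentiation medium, the endothelial markers to 21.9 to 35.0 and 15.7 to 44.0 CPM, and the acinar markers to 0.341 to 1.97 and 0.289 to 0.605 CPM. The part of any of these in the levels above was not tested.

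Differences between lines were tested by edgeR in a fit of line and medium together, with 2 libraries per line. DHRS9 passed, with an adjusted p of 0.0132, and was 1 of the 8 genes tested, against 5.14% of all genes. Its mean over the media was 7.41 CPM in EPN2, 0.525 in EPN1, 0.188 in LPN and 0.0320 in Em. ALDH1A2 had an adjusted p of 0.0519, with means of 19.8 CPM in Em, 14.6 in EPN1, 1.30 in LPN and 1.17 in EPN2. CRABP2 had 0.0705, with means of 400.3 CPM in EPN2, 199.1 in LPN, 75.4 in EPN1 and 22.8 in Em. The adjusted p for lines was 0.136 for ALDH1A1, 0.150 for RBP2, 0.208 for RDH10, 0.657 for DHRS3 and 0.738 for CYP26B1. The likelihood ratio test of DESeq2 passed 6 of the 8, all but DHRS3 and CYP26B1, against 31.5% of all genes. In edgeR DHRS9 lost its call without the LPN library in complete medium (adjusted p 0.0507), in differentiation medium (0.0506) or the EPN1 library in differentiation medium (0.0520). CRABP2 and ALDH1A2 passed in edgeR without the EPN2 library in complete medium, with adjusted p values of 0.0400 and 0.0302, and ALDH1A2 without that in differentiation medium, with 0.0493.

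**Figure D3:**
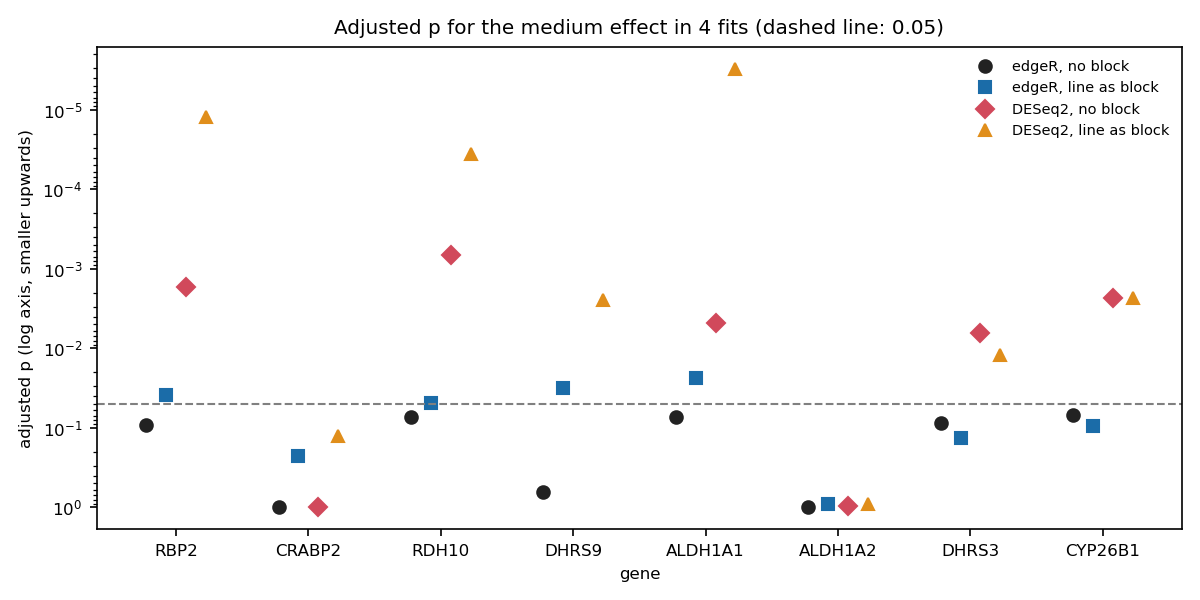
Adjusted p for the effect of the medium on each of the 8 genes tested, on a log axis with smaller values upwards, from edgeR and DESeq2, each without and with the line as a block; DESeq2 without the block gave DHRS9 no p. The points for CRABP2 and ALDH1A2 lie below the threshold line of 0.05 in every fit shown, and those for edgeR without the block lie below it for all 8 genes.

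The other genes of the pathway were counted in the same fits, from lists by role. None of the 34 tested genes of the 5 lists passed in edgeR without the block, where 8 had an unadjusted p under 0.05 (27.3% of all genes tested), and with the line as a block 10 rose and 3 fell (9.48% and 10.4% of all genes). Each list is described below by up to 3 genes of highest mean CPM, and genes named only for passing with the block were chosen after their values were seen. The median log2 fold change without the block was -0.47 for the other uptake, storage and binding genes (8 of 15 tested), 0.12 for the other synthesis genes (10 of 15), 0.02 for the receptors and their partners (9 of 11) and 0.24 for genes that retinoic acid raises in other cells (6 of 13).

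Among the uptake and storage genes, SCARB1, a lipoprotein receptor that also takes up carotenoids, was at 83.7 ± 11.5 CPM (SD, n = 4) in complete and 36.7 ± 22.3 CPM (SD, n = 4) in differentiation medium, lower in 4 of 4 lines. Its log2 fold change with the block was -1.39, with an edgeR adjusted p of 0.0440. BCO2, which cleaves carotenoids, was at 65.7 ± 18.6 and 46.4 ± 15.7 CPM (SD, n = 4 each), with -0.52 and an edgeR adjusted p of 0.0299 in that fit. DGAT1, an acyltransferase that can also esterify retinol, was at 31.9 ± 3.94 and 43.8 ± 2.77 CPM (SD, n = 4 each), higher in 4 of 4 lines, with 0.47 and an edgeR adjusted p of 0.0326. The 3 genes were the ones of this list that passed with the block, 1 higher and 2 lower of 8 tested. Of all genes 9.48% were higher and 10.4% lower in that fit.

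Of the 10 other synthesis genes tested 5 rose and 1 fell with the line as a block, against 9.48% and 10.4% of all genes. The list also holds a retinal reductase, RDH12, so these counts give no direction of synthesis. ADH5, an alcohol dehydrogenase of broad use, was at 62.7 ± 4.77 and 87.9 ± 14.0 CPM (SD, n = 4 each), with a log2 fold change of 0.48 and an edgeR adjusted p of 0.0323. RDH12, a retinal reductase of the eye and other tissues, was at 0.0867 CPM in Em, 9.85 in LPN, 1.44 in EPN1 and 60.1 in EPN2 in complete medium and at 1.07, 86.4, 5.21 and 210.3 CPM in differentiation medium. It was higher in 4 of 4 lines, with the same order of lines in both media, a log2 fold change of 2.42 and an edgeR adjusted p of 0.0145 with the block. RDH13 did not pass, at 30.7 ± 8.34 and 25.9 ± 5.20 CPM (SD, n = 4 each). RDH14, SDR16C5 and ADH1C were the others that rose, by 0.98, 4.21 and 6.42 on the log2 scale, and the third retinaldehyde dehydrogenase ALDH1A3 fell by 1.31. In complete medium ADH1C had 12, 0, 4 and 0 counts in Em, LPN, EPN1 and EPN2, and SDR16C5 had 0, 5, 1 and 105. The folds of these genes thus start from few counts in most lines, and their size is uncertain. ADH1C was at 15.5 CPM in Em and 12.9 CPM in EPN1 in differentiation medium, 0.856 in LPN and 0 in EPN2, where it did not rise. SDR16C5 was highest in EPN2 in differentiation medium, at 25.4 CPM.

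CYP26A1, the other breakdown gene that was tested, had the opposite sign to CYP26B1. It was at 0.910 CPM in Em, 4.14 in LPN, 2.00 in EPN1 and 10.8 in EPN2 in complete medium and at 0, 2.61, 0.498 and 4.06 CPM in differentiation medium, lower in 4 of 4 lines. The groups overlapped, and the log2 fold change was -1.31 with an edgeR adjusted p of 0.555, and -1.91 with an adjusted p of 0.130 with the block. From DESeq2 the adjusted p was 0.513 without the block and 0.0221 with it. CYP26C1 had at most 2 counts.

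The receptors for retinoic acid were present in both media. FABP5, which carries retinoic acid to PPARD, was at 642.0 ± 494.9 and 437.1 ± 423.0 CPM (SD, n = 4 each), and RXRA at 151.4 ± 33.7 and 193.9 ± 43.3 CPM. Neither passed in edgeR with or without the block, while DESeq2 gave RXRA an adjusted p of 0.300 without the block and 0.0378 with it. RARG and PPARD rose with the block, by 0.77 and 0.60 on the log2 scale, with edgeR adjusted p values of 0.0203 and 0.0376. They were 2 of 9 tested, against 9.48% of all genes higher in that fit. RXRG was at 0 in all 8 libraries, and RARB was not analysed here.

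Of the genes that retinoic acid raises in other cells, GPRC5A was at 279.3 ± 80.7 and 219.1 ± 52.9 CPM (SD, n = 4 each), the transglutaminase TGM2 at 93.6 ± 60.9 and 106.8 ± 51.5 CPM, and the homeobox gene MEIS1 at 67.4 ± 19.0 and 107.8 ± 16.1 CPM. MEIS1 and the nuclear receptor gene NR2F2 rose with the block, by 0.71 and 1.18 on the log2 scale, with edgeR adjusted p values of 0.0219 and 0.0160. They were 2 of 6 tested, against 9.48% of all genes higher in that fit. Both were higher in 4 of 4 lines, as were 23.9% of all genes tested, and the groups of MEIS1 did not overlap. CD38, an ectoenzyme that uses NAD, was at 30.7 ± 12.7 and 6.83 ± 4.91 CPM (SD, n = 4 each). It was lower in 4 of 4 lines, as were 24.2% of all genes tested. Its groups did not overlap either, which held for 18.8% of all genes tested. Its log2 fold change was -2.17 with an edgeR adjusted p of 0.0773, and -2.37 with 0.0507 with the block, while DESeq2 gave adjusted p values of 0.00460 without the block and 0.000193 with it. CD38 and NR2F2 were chosen for mention after their values were seen. HOXA2 was at 0 in every library. CYP26B1 and CRABP2, which retinoic acid also raises in many cells, are described above.

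**Figure D4:**
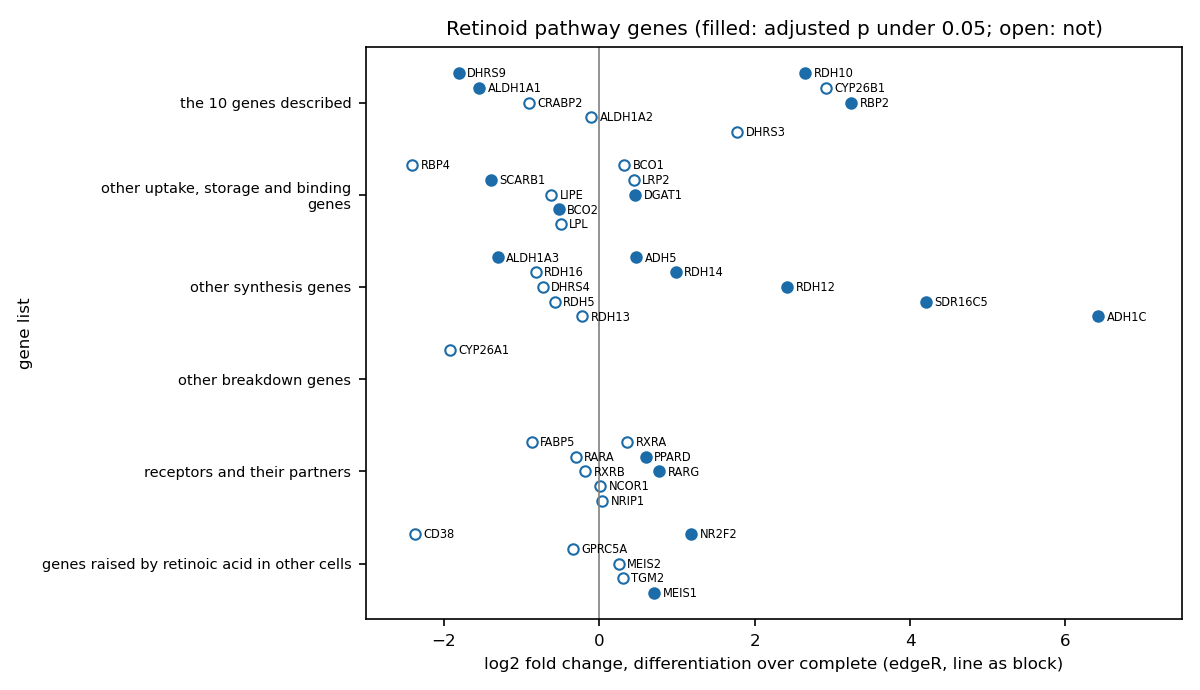
Log2 fold change between media from edgeR with the line as a block, on the x axis, for tested genes of each list, 1 point per gene; filled points have an adjusted p under 0.05. CYP26A1 and CYP26B1 lie on opposite sides of 0, as do ALDH1A3 and ADH1C, and 4 of the 8 genes in the first row are filled.

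Genes outside these lists whose log2 CPM followed a member most closely over the 8 libraries were found by Pearson correlation, as a description, since the libraries share lines and media. RBP2 was followed most closely by ADAM19 (r = 0.987), ATMIN (r = 0.980) and PAM (r = 0.980). ADAM19 encodes a membrane metalloprotease and PAM the enzyme that amidates peptide hormones, and their levels were 0.181 ± 0.210 and 7.49 ± 7.82 CPM (SD, n = 4 each) for ADAM19 and 109.0 ± 24.4 and 240.1 ± 128.0 CPM for PAM. ALDH1A1 was followed by MRPL28 (r = 0.982), DCTPP1 (r = 0.975) and IBTK (r = 0.965), and CYP26B1 by SPINDOC (r = 0.982), FOXS1 (r = 0.974) and RALGPS1 (r = 0.973). FOXS1, a forkhead factor, was 1 of these 9 genes to pass between media without the block, at 1.14 ± 0.461 and 11.05 ± 12.3 CPM (SD, n = 4 each), with an edgeR adjusted p of 0.0462.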

How the data were processed

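The authors sequenced poly(A)-selected RNA of 8 libraries and ran an nf-core workflow in which salmon quantified the reads on a pig genome with a custom annotation. They deposited estimated counts per gene, and whether these were scaled by gene length could not be read from the values. The rows of a gene (base, isoform and 3′ extension rows) were summed and rounded, and 8 reporter rows (0.00142% of counts) were left out. Media were taken from the titles and header names, and lines from the header, since the labels' replicate numbers could not be tied to lines. RefSeq locations (Sscrofa11.1, the build in the submitters' processing notes) were found for 9 of the 10 genes by symbol.

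The main test was the quasi-likelihood test of edgeR 4.0.16 in R 4.3.3, with medium as the only term, TMM factors, the default expression filter and Benjamini-Hochberg adjustment over 14475 genes; the threshold was an adjusted p under 0.05. DESeq2 1.42.0, the line as a replicate block, other scaling and filters, and leaving out libraries were alternatives. The code was tested on simulated data. Same-line libraries of the 2 media deviated together (r = 0.400 to 0.658 in 4 pairs, against -0.479 to 0.242 in 12 pairs of different lines), so the header's lines pair the libraries. Each line is 1 culture, so p-values without the block measure the spread between these lines. With the block, and in the test of lines, they measure the spread left after line and medium are fitted. A pseudocount of 0.1 CPM was used for correlations. Named genes were all 10 members, every other pathway gene that passed and the 3 of highest mean CPM in each list. Some listed genes are not reported here by name, though counted. The genes and lists were chosen with earlier results of these data known.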

Additional observations from a re-analysis of the deposited data

Results flagged for a closer look

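In 4 of 20 groups of 4 libraries, 1 library stood apart from the other 3 by Dixon's test. The chance rate of that test, about 1 of 20 groups, holds for independent, normally distributed values. The values here were CPM, some from few counts, and the groups share the same 4 lines in both media. The number of groups flagged is therefore not compared with that rate, and the groups are listed as a description. DHRS9 stood apart in EPN2 in both media, with a gap of 0.918 of the range in complete and 0.972 in differentiation medium. STRA6 stood apart in EPN2 in differentiation medium (0.892), with 33 counts against at most 4. LRAT stood apart in EPN1 in complete medium (0.903), with 11 counts against at most 2, which is too few to read a difference from.

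DHRS3 moved in opposite ways in the embryonic line and in the 3 postnatal lines. Its log2 change from complete to differentiation medium was -0.72 in Em and 3.03 in LPN, 1.41 in EPN1 and 3.06 in EPN2, so that the change in Em was -3.21 relative to the mean of the others. Em is 1 line with 1 library in each medium, and the difference was not tested.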

How the results depend on the processing

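Without the block, edgeR called 0 genes higher and 0 lower, where 6.97% of all genes passed. With the replicate block these were 2 and 2 (19.9% of all genes passed). With DESeq2 they were 4 and 1 (20.1%), and with DESeq2 and the block 4 and 2 (37.3%). Leaving out 1 library gave 0 to 2 higher and 0 to 0 lower. In fits chosen after seeing the data, leaving out both Em libraries with the block gave 3 higher, and leaving out both EPN2 libraries gave 1 higher without the block and 1 higher and 1 lower with it. For fits that leave out libraries the share of all genes past the threshold is not given here, so these counts have no background beside them. Between lines 1 gene passed the threshold (5.14% of all genes), and 6 passed with the DESeq2 likelihood ratio test (31.5%). The number was 3 without the filter on low counts and 0 to 3 with 1 library left out. The share of all genes in those line tests is not given here.

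RBP2, RDH10, ALDH1A1, DHRS3 and CYP26B1 kept their sign in all 22 alternatives. CRABP2 turned from -0.04 to 0.12, 0.46, 0.37 and 0.28 without LPN or EPN2 in complete or Em or EPN1 in differentiation medium, (-1.28 to 0.46 over all leave-outs), and to 0.043, 0.14 and 0.10 without both libraries of Em, LPN or EPN1. DHRS9 turned to 1.40 without EPN2 in complete medium (-5.18 to 1.40 over all leave-outs). ALDH1A2 turned from 0.06 to -0.10 with the replicate block in edgeR and in DESeq2, to -0.32, -0.28, -0.32 and -0.57 in the same 4 leave-outs as CRABP2 (-0.57 to 1.20 over all), to -0.37 without LPN with the block, and without EPN1 to -0.54, or -0.52 with the block. The cause of these turns was not tested. Scaling by DESeq2 size factors, no filter and no 3′ extension rows changed no call between media. Depth limits STRA6 and LRAT.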
